A study of Mus musculus with 6 samples.

Results

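The core genes for supply and reception of transforming growth factor beta (TGF-beta) number 10: the ligand genes Tgfb1, Tgfb2 and Tgfb3, the receptor genes Tgfbr1, Tgfbr2 and Tgfbr3, and the genes of the latent TGF-beta binding proteins, Ltbp1, Ltbp2, Ltbp3 and Ltbp4. All 10 were picked by symbol, and each had 1 row among the 24346 genes of the deposited tables. RNA came from condylar cartilage, the growth cartilage that caps the lower jaw at the temporomandibular joint, dissected from mice. The 3 control libraries are labelled fl/fl, the usual notation for a floxed gene, and the 3 mutant libraries come from mice whose gene for Indian hedgehog (Ihh) was deleted in craniofacial neural crest cells. The series description mentions Cre and Tomato expression as a check of the mutants, and the sources used here do not give the driver of Cre or the age and sex of the mice. Whether each library stands for its own animal is not in the labels, so p-values reflect only how these samples vary, and that variation may be technical.

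TGF-beta is secreted in a latent form. The propeptide stays wrapped around the mature dimer, and in most cells a latent binding protein is joined to the propeptide and ties the complex to fibrillin microfibrils and fibronectin until integrins or proteases release the ligand. Released ligand binds the kinase receptor Tgfbr2, which recruits and activates Tgfbr1. That receptor phosphorylates Smad2 and Smad3, which enter the nucleus with Smad4. In growth cartilage the pathway is known for supporting chondrocyte matrix production and for holding back hypertrophy.

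The unit was FPKM, a fragment number divided by transcript length and library size, which allows levels of different genes to be set side by side. The test was limma's moderated test of log2(FPKM + 1), and a gene was called at a Benjamini-Hochberg adjusted p below 0.05 among the 18715 that entered it. The low FPKM values stepped in units of single fragments, and 78.8% of the tested genes resolved into whole fragments within 0.02 of a fragment in every library. Together with the lengths of 2516 genes that have 1 annotated transcript, those steps gave an estimated depth of 1250000 fragments in control 1 (interquartile range over genes 1100000 to 1330000) and of 1240000 to 1660000 in the other libraries. The cartilage markers Col2a1, Acan and Sox9 were present in every library (Col2a1 at 88.5 to 159 FPKM in controls against 32.3 to 69.9 FPKM in mutants). The label check gave Ihh at 3.73, 2.51 and 3.74 FPKM in controls against 2.18, 2.33 and 2.66 FPKM in mutants (limma adjusted p = 0.724), with its target Gli1 falling from 8.7 ± 1.39 to 0.516 ± 0.323 FPKM (SD, n = 3; limma adjusted p = 0.0152). The Ihh values were only 12, 8 and 16 fragments in controls against 7, 9 and 9 in mutants. Such low numbers do not allow the size of a loss of Ihh to be measured. One library stood apart within its group. Xist, the X-inactivation transcript, stood at 29.5 FPKM in control 1, 29.2 FPKM in control 2 and no more than 0.984 FPKM in the other 4 libraries, while the Y-linked Eif2s3y stood at 0.89 FPKM in control 1, 0 in control 2 and at least 38.4 FPKM in the other 4. The 2 sexes were thus unequally spread over the groups, and sex and genotype cannot be told apart where controls 1 and 2 differ from the other 4 libraries.

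No gene of the 10 was called between mutant and control (limma adjusted p from 0.23 to 0.975), and in each of them the control and mutant ranges overlapped. Across all genes tested, 1.24% were called (0.775% higher and 0.465% lower), and in 19.2% the groups did not overlap. A share of 0 in 10 genes is close to the first of these backgrounds and is no result about the family. At an unadjusted p below 0.05 there was 1 member, Ltbp4, against 14.1% of all genes. The log2 fold changes ran from -0.50 for Tgfb1 to 0.86 for Ltbp4, with 6 above and 4 below 0, and their median of 0.10 stood beside a median of 0.0 over all genes tested. Each gene is given below with the 95% interval of its fold change on the scale of FPKM + 1, since a p above the threshold does not show that levels were equal.

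**Figure D1:**
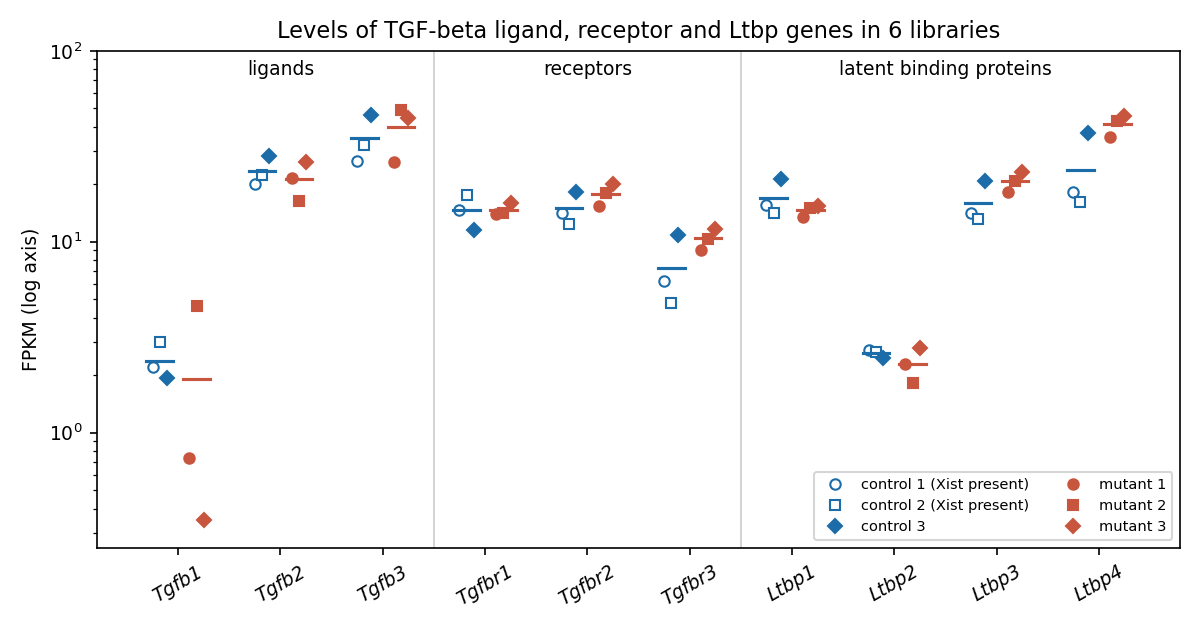
FPKM on a log axis for the 10 genes, 1 point per library, with horizontal bars at the group means; open symbols mark controls 1 and 2, in which Xist was present. Tgfb1 and Ltbp2 lay far below the other genes in most libraries, and control 3 sat among the mutants for Tgfbr2, Tgfbr3, Ltbp3 and Ltbp4.

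The ligand genes differed from one another far more than they differed between the groups. Tgfb3, whose product is needed for palate closure, was the most abundant ligand in every library, Tgfb2 came next in every library, and Tgfb1 was the lowest. Tgfb3 measured 26.5, 32.0 and 46.1 FPKM in controls 1, 2 and 3, against 26.1, 48.7 and 44.7 FPKM in mutants 1, 2 and 3. Control 3 lay with mutants 2 and 3, and mutant 1 lay with controls 1 and 2. Its group means were 34.8 ± 10.1 and 39.8 ± 12 FPKM (SD, n = 3), and the log2 fold change was 0.18 ± 0.29 (SE; limma adjusted p = 0.863), with an interval of the fold from 0.717 to 1.78. As whole fragments, these values corresponded to 121, 145 and 280 in controls against 119, 267 and 215 in mutants.

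Tgfb2, a ligand that depends on the co-receptor Tgfbr3 for efficient binding to Tgfbr2, measured 20.0, 22.3 and 28.1 FPKM in controls against 21.6, 16.3 and 26.0 FPKM in mutants. The highest value was in control 3 and the lowest in mutant 2. Means were 23.5 ± 4.17 and 21.3 ± 4.87 FPKM (SD, n = 3), with a log2 fold change of -0.15 ± 0.23 (SE; limma adjusted p = 0.858) and an interval of the fold from 0.627 to 1.3. The fragments behind them were 130, 144 and 243 in controls and 140, 127 and 178 in mutants.

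Tgfb1, the ligand most studied in inflammation and bone remodelling, was barely detected at this depth. It measured 2.21, 2.97 and 1.94 FPKM in controls against 0.739, 4.61 and 0.35 FPKM in mutants, which corresponded to 6, 8 and 7 fragments in controls against 2, 15 and 1 in mutants. The mutant values lay on both sides of the controls. Genes of olfactory receptors, hardly used by other tissues, had a 90th percentile of 6.49 to 8.69 FPKM over the 6 libraries, and Tgfb1 lay below it in all 6. The sums of 21 and 18 fragments gave a mutant to control ratio of 0.876 after scaling, with an exact 95% interval from 0.44 to 1.73 that covers counting error only. The test across libraries gave a log2 fold change of -0.50 ± 0.53 (SE; limma adjusted p = 0.771), with an interval of the fold from 0.307 to 1.62. Without mutant 2 that change was -1.13 (adjusted p = 0.318), in a range of adjusted p from 0.318 to 0.972 over the settings tried, and with a pseudocount of 0.1 in place of 1 it was -1.01 (adjusted p = 0.705). A difference in Tgfb1 within these bounds was not detectable here.

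As a share of the summed FPKM of the 3 ligands, Tgfb3 made up 54.4%, 55.8% and 60.5% in controls against 53.9%, 70.0% and 62.9% in mutants. Tgfb2 made up 41.1%, 39.0% and 36.9% in controls against 44.6%, 23.4% and 36.6% in mutants, and Tgfb1 at most 6.62% in any library. The share of Tgfb3 thus overlapped between the groups, with mutant 2 the highest and mutant 1 the lowest.

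The promoters of the scarce Tgfb1 and the abundant Tgfb2 are shown to set side by side a pair of ligand genes that differed in level in every library. Sequences are from RefSeq (GRCm38.p6, the build also called mm10), 250 bases up to the base before the annotated start, 5′ to 3′ on the strand of the gene. Capitals mark the letters searched for on both strands: GGGCGG (the GC box bound by Sp1, CCGCCC on the other strand), TATAA (the TATA element, TTATA on the other strand) and CAGAC (the letters of a Smad box, GTCTG on the other strand). The Tgfb1 window is chr7:25686752-25687001 on the plus strand and the Tgfb2 window is chr1:186705990-186706239 on the minus strand.
Tgfb1: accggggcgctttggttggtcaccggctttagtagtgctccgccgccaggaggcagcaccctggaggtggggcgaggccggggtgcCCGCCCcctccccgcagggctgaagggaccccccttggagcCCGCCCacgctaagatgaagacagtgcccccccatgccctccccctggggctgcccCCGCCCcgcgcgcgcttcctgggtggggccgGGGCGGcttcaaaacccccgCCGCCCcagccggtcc
Tgfb2: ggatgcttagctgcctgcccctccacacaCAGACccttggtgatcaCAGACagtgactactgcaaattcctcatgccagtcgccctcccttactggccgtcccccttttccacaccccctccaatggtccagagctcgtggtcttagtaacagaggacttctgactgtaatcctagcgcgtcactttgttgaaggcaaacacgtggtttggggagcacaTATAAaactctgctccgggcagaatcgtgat
In the Tgfb1 window there were 5 GC boxes, no TATAA and no CAGAC, with 75.2% G and C. The Tgfb2 window held 1 TATAA, which began 31 bases before the start, and 2 CAGAC, which began 221 and 204 bases before it, with no GC box and 53.6% G and C. Of all 32851 RefSeq promoter windows of this length, 32.7% held a GC box, 22.8% a TATAA and 42.2% a CAGAC. A match is a description of letters, and no binding was measured. RefSeq promoters were matched for 8 of the 10 genes, not for Tgfb3 and Tgfbr3.

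**Figure D2:**
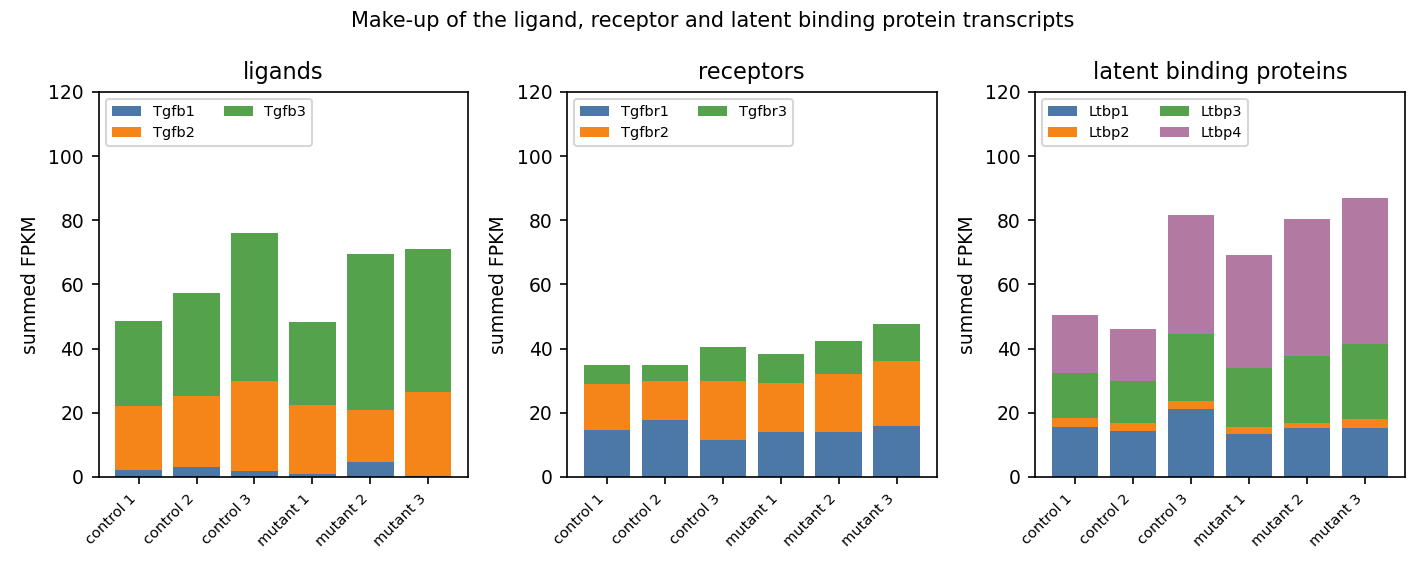
Summed FPKM of the ligand, receptor and latent binding protein genes in each library, stacked by gene, on axes that start at 0. Tgfb3 and Tgfb2 made up nearly all ligand transcript, and Ltbp4 took 35.1% to 45.4% of the latent binding protein sum in controls and 51.2% to 53.3% in mutants.

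The kinase receptor gene Tgfbr1 had means of 14.6 FPKM in controls and 14.7 FPKM in mutants. The kinase receptor gene Tgfbr2 and the co-receptor gene Tgfbr3 were lower in controls 1 and 2 than in the other 4 libraries. Tgfbr1, the type I kinase that phosphorylates Smad2 and Smad3, measured 14.7, 17.6 and 11.5 FPKM in controls against 14.0, 14.1 and 16.0 FPKM in mutants. Here control 3 was the lowest of all 6 libraries, and the mutants lay between the controls. Its log2 fold change of 0.03 ± 0.22 (SE; limma adjusted p = 0.975) had an interval of the fold from 0.723 to 1.44, with 110 to 137 fragments per library.

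Tgfbr2, the type II kinase that binds ligand first, measured 14.1, 12.4 and 18.3 FPKM in controls against 15.3, 18 and 20.1 FPKM in mutants. All 3 mutants lay above controls 1 and 2, and control 3 lay between mutants 2 and 3. The log2 fold change was 0.24 ± 0.22 (SE; limma adjusted p = 0.731), with an interval of the fold from 0.837 to 1.68. Without controls 1 and 2 it was -0.05.

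Tgfbr3 encodes betaglycan, a membrane proteoglycan that presents ligand to Tgfbr2 and also binds inhibin. It measured 6.19, 4.79 and 10.8 FPKM in controls against 9.06, 10.3 and 11.7 FPKM in mutants, or 52, 40 and 121 fragments in controls against 76, 104 and 104 in mutants. Control 3 was second only to mutant 3, and it was 1.97 times the mean of controls 1 and 2. In controls 1 and 2 alone Tgfbr3 lay below the olfactory 90th percentile, which was 7.78 and 8.56 FPKM there. The means of 7.27 ± 3.15 and 10.4 ± 1.34 FPKM (SD, n = 3) gave a log2 fold change of 0.52 ± 0.30 (SE; limma adjusted p = 0.513), with an interval of the fold from 0.901 to 2.28. It was 0.81 without control 3 (adjusted p = 0.221) and -0.06 without controls 1 and 2 (adjusted p = 0.97), when the remaining control was assumed to vary as the mutants did.

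**Figure D3:**
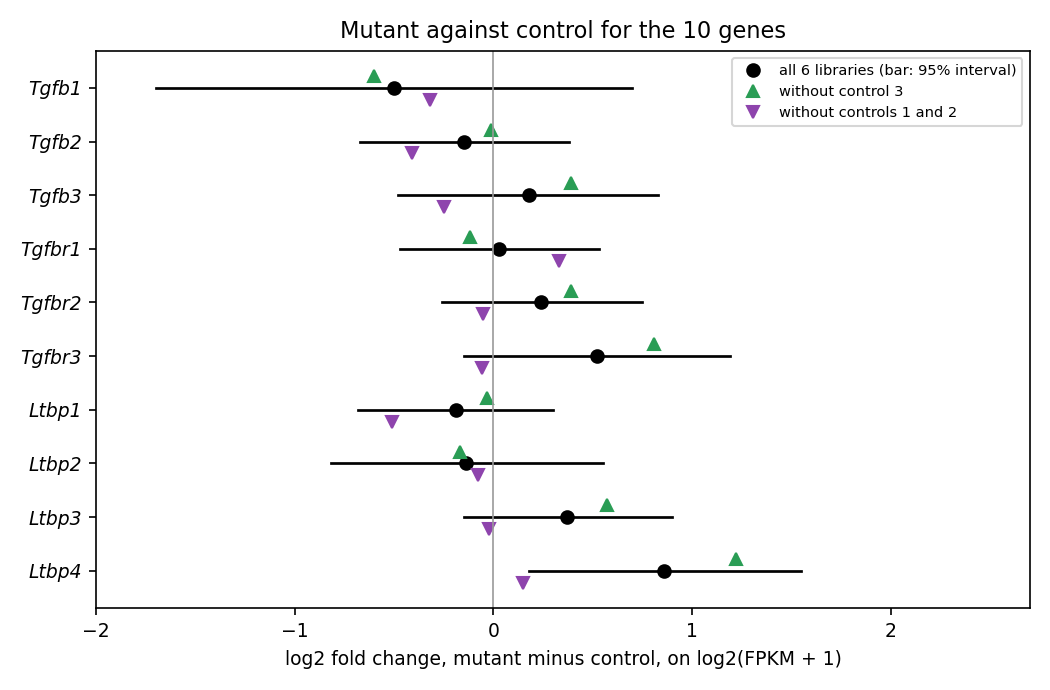
Log2 fold change of mutant minus control for the 10 genes (black points, with 95% intervals), beside the same value without control 3 (green) and without controls 1 and 2 (purple). For Ltbp4 the value was 0.86 with all libraries, 1.22 without control 3 and 0.15 without controls 1 and 2.

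Ltbp4, which binds latent Tgfb1 product and helps assemble elastic fibres, had the largest log2 fold change of the 10 genes with all libraries and a pseudocount of 1. It measured 18.1, 16.2 and 37.1 FPKM in controls against 35.5, 42.8 and 45.8 FPKM in mutants. Controls 1 and 2 were the lowest of the 6 libraries, and control 3 lay above mutant 1 and below mutants 2 and 3. The means of 23.8 ± 11.6 and 41.4 ± 5.29 FPKM (SD, n = 3) gave a log2 fold change of 0.86 ± 0.30 (SE; limma adjusted p = 0.23, unadjusted p = 0.019), with an interval of the fold from 1.13 to 2.92. Without control 3 the change was 1.22 and was called (adjusted p = 0.0472), and without controls 1 and 2 it was 0.15 (adjusted p = 0.923), in a range of adjusted p from 0.0472 to 0.98 over the settings tried. The call of Ltbp4 thus rested on which controls were used, and control 3 was 2.17 times the mean of controls 1 and 2. Without control 3 only controls that express Xist were left, so sex and genotype cannot be told apart in that fit. With Xist or the mean level of the skeletal muscle markers as a covariate the change was 0.16 ± 0.25 or 0.14 ± 0.57 (SE; limma adjusted p = 0.886 and 0.98). The mean log2 muscle level did not overlap between the groups (5.57 to 6.66 in controls, 7.13 to 7.81 in mutants). A fit with that covariate can therefore hardly separate it from genotype. Summed muscle markers were 5150 to 12800 FPKM in controls, highest in control 3, and 20600 to 37500 FPKM in mutants, and summed endothelial markers 124 to 197 FPKM, again highest in control 3, and 328 to 375 FPKM. None of these markers was at 0 in any library, and their part in the values of Ltbp4 was not tested.

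Ltbp3, which binds the latent complex of all ligand forms and is known for its role in bone and tooth growth, also had control 3 among the mutants. It measured 14.1, 13.1 and 20.9 FPKM in controls against 18.2, 20.7 and 23.3 FPKM in mutants, with 101, 93 and 199 fragments in controls against 130, 178 and 176 in mutants. Controls 1 and 2 were again the lowest, and control 3 lay above mutants 1 and 2. The log2 fold change was 0.37 ± 0.23 (SE; limma adjusted p = 0.566), with an interval of the fold from 0.90 to 1.87. It was 0.57 without control 3 and -0.02 without controls 1 and 2.

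Ltbp1, which carries latent ligand into the fibronectin and fibrillin matrix, did not share this pattern. It measured 15.6, 14.2 and 21.2 FPKM in controls against 13.4, 15.1 and 15.3 FPKM in mutants, with control 3 the highest of the 6 and the other 5 close together. Its log2 fold change was -0.19 ± 0.22 (SE; limma adjusted p = 0.793), with an interval of the fold from 0.624 to 1.23. Ltbp2, a microfibril protein that is not known to bind latent TGF-beta, was low throughout, at 2.72, 2.63 and 2.45 FPKM in controls against 2.29, 1.81 and 2.79 FPKM in mutants. These values were 20 to 30 fragments per library and also lay under that olfactory percentile in all 6. The log2 fold change of Ltbp2 was -0.14 ± 0.30 (SE; limma adjusted p = 0.903), and the scale of log2(FPKM + 1) understates changes at such levels.

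Ltbp4 was also set against Ltbp1 within each library. The ratio of Ltbp4 to Ltbp1 FPKM was 1.16, 1.14 and 1.75 in controls against 2.65, 2.84 and 2.99 in mutants. All 3 mutants lay above all 3 controls, control 3 included, and the mutant ratio was 2.14 times the control ratio (geometric means). This ratio was chosen after its values were seen, as the widest separation among the 45 ratios between the 10 genes, so it is given as a description. An exact permutation test of the log2 ratio gave p = 0.1, which any full separation of 3 libraries from 3 gives. Of those 45 ratios, which share genes, 14 did not overlap between the groups. Taken over Ltbp1, 4 of the other 9 genes had ratios of FPKM + 1 that were higher in every mutant (Ltbp4, Ltbp3, Tgfbr3 and Tgfbr2), against 15.5% of all genes tested. These 4 ratios share a denominator that was picked after its values were seen and was highest in control 3. Their number is thus no result about the family. Without controls 1 and 2 the log2 difference in the Ltbp4 to Ltbp1 ratio was 0.69 in place of 1.1.

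**Figure D4:**
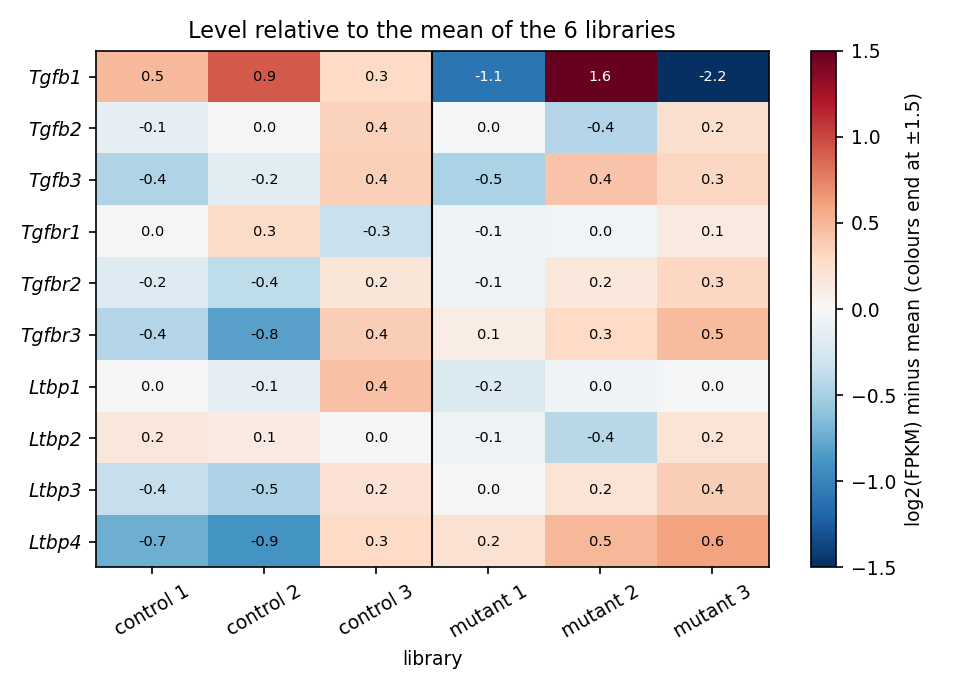
Log2 FPKM of each gene minus its mean over the 6 libraries, with libraries in columns and the groups split by a line. Tgfbr2, Tgfbr3, Ltbp3 and Ltbp4 were lowest in controls 1 and 2 and near the mutants in control 3, whereas Tgfbr1 was lowest in control 3.

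In order of mean level the control libraries ran Tgfb3, Ltbp4, Tgfb2, Ltbp1, Ltbp3, Tgfbr2, Tgfbr1, Tgfbr3, Ltbp2 and Tgfb1, from 34.8 down to 2.37 FPKM. Only Tgfbr1 and Tgfbr3, and Tgfbr3 and Ltbp2, were neighbours whose control ranges did not overlap. Mutant libraries ran Ltbp4, Tgfb3, Tgfb2, Ltbp3, Tgfbr2, Tgfbr1, Ltbp1, Tgfbr3, Ltbp2 and Tgfb1, from 41.4 down to 1.9 FPKM. There the ranges were apart between Tgfb3 and Tgfb2, between Ltbp1 and Tgfbr3 and between Tgfbr3 and Ltbp2. By the root mean square difference of centred log2(FPKM + 1) over the 6 libraries, the genes most like Ltbp4 among 11237 candidates were Mapk12 (0.114), Fbn1 (0.116) and Chmp4b (0.125). Tgfbr3 ranked at position 22 in that order and Ltbp3 at 197. Fbn1 measured 9.19, 7.8 and 16.6 FPKM in controls against 16.7, 18.2 and 19 FPKM in mutants (limma adjusted p = 0.295).

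The genes lie on 8 chromosomes in mm10. Tgfb1 (chr7:25687002-25705077, plus strand) and Ltbp4 (chr7:27305136-27337692, minus strand) are on the same chromosome, as are Ltbp2 (chr12:84783212-84876532) and Tgfb3 (chr12:86056745-86079041), both on the minus strand. Tgfb2 lies at chr1:186622792-186705989 (minus), Tgfbr1 at chr4:47353222-47414931 (plus), Tgfbr2 at chr9:116084293-116175360 (minus), Tgfbr3 at chr5:107106570-107289629 (minus), Ltbp1 at chr17:75005568-75392512 (plus) and Ltbp3 at chr19:5740904-5758532 (plus). Exons of Tgfb2, Tgfb3 and Ltbp2 overlap noncoding or unclassified genes on the opposite strand (GENCODE M21), which these libraries do not separate.

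Around the 10 genes, 83 other tested genes of the pathway were counted in 5 lists, and 1 rose and 4 fell, all of them in the list of response genes. That is 6.02% called against 1.24% of all genes tested, but the lists were written with earlier results of these data known and are no independent evidence. Among 24 genes of latency and activation none was called (limma). At an unadjusted p below 0.05 there were 5 of the 24, against 14.1% of all genes. The 3 with the smallest p were Emilin1, an elastic fibre protein that restrains processing of the ligand precursor (42.1 ± 7.02 FPKM in controls, 23.6 ± 6.45 FPKM in mutants), the lysosomal protease Ctsd (173 ± 1.57 and 254 ± 42.0 FPKM) and the microfibril gene Mfap5 (48.4 ± 30.9 and 131 ± 49.8 FPKM), with adjusted p of 0.161, 0.197 and 0.245. The list's median log2 fold change was 0.07.

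Of 5 co-receptor and endothelial receptor genes tested none was called (limma). At an unadjusted p below 0.05 there were 2, against 14.1% of all genes. Acvrl1, the type I receptor of endothelial cells, measured 1.45, 1.25 and 5.28 FPKM in controls against 7.46, 7.92 and 13.4 FPKM in mutants (limma adjusted p = 0.109). Its partner Eng, endoglin, measured 8.81, 20.2 and 17.0 FPKM in controls against 22.9, 27.5 and 26.2 FPKM in mutants (limma adjusted p = 0.275). For both genes all mutants lay above all controls, as for 9.77% of all genes. Acvrl1 lay below the olfactory 90th percentile in all 3 controls and in mutant 1. Its log2 fold change was 1.66 with all libraries and 2.13 without control 3, where it was called (limma adjusted p = 0.0414). That fit keeps only the 2 controls that express Xist, so sex and genotype cannot be told apart in it. The change was 0.71 without controls 1 and 2 and 0.74 with the Xist covariate, in a range of adjusted p from 0.0414 to 0.873 over the settings tried. Endothelial markers moved the same way: of 14, which include Eng, 3 rose and 13 were higher in every mutant, with a summed level of 124 to 197 FPKM in controls against 328 to 375 FPKM in mutants and no marker at 0. Their part in the values of Acvrl1 and Eng was not tested. In RNA from whole tissue, more cells of a type and more RNA per cell cannot be told apart.

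Genes that carry the signal inside the cell gave no call. Of 19 Smad genes and partners none was called (limma), and 0 had an unadjusted p below 0.05, against 14.1% of all genes. The 3 with the smallest p were the Smad corepressor genes Tgif2 (8.7 ± 1.4 FPKM in controls, 5.66 ± 1.1 FPKM in mutants) and Tgif1 (13 ± 1.73 and 20.5 ± 7.64 FPKM) and the phosphatase gene Ppm1a (17.9 ± 1.98 and 23.5 ± 3.5 FPKM). Smad3 and Smad4, chosen after their values were seen, measured 7.81 ± 1.63 and 22.1 ± 5.05 FPKM in controls against 6.78 ± 0.855 and 23.3 ± 1.28 FPKM in mutants (SD, n = 3).

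Among 9 extracellular proteins that bind TGF-beta none was called (limma). Against 14.1% of all genes, 1 of the 9 had an unadjusted p below 0.05. That was Aspn, asporin, a small proteoglycan that holds back TGF-beta in cartilage, at 419, 515 and 558 FPKM in controls against 140, 353 and 219 FPKM in mutants (limma adjusted p = 0.119). The protease gene Htra1 measured 163 ± 17.7 and 121 ± 21.8 FPKM, and the collagen-binding Fmod 310 ± 42.8 and 517 ± 249 FPKM. All mutant values of Aspn and Htra1 lay below the controls, as for 9.4% of all genes, and all mutant values of Fmod lay above them, as for 9.77%.

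Of 31 response genes tested, 1 rose and 4 fell, with a median log2 fold change of -0.08. At an unadjusted limma p below 0.05 there were 11, against 14.1% of all genes. In 8 genes all mutants lay below all controls, against 9.4% of all genes, and in 2 above them, against 9.77%. This list too was written with earlier results of these data known. Postn, periostin, a matricellular protein of fibrous tissue, fell from 834, 978 and 1070 FPKM in controls to 204, 384 and 211 FPKM in mutants (log2 fold change -1.90 ± 0.26, limma adjusted p = 0.0189). Tgfbi, a secreted matrix protein named for its induction by TGF-beta, fell from 229, 248 and 307 FPKM to 70.5, 61.9 and 108 FPKM (limma adjusted p = 0.0197). Acta2, the actin of smooth muscle and myofibroblasts, fell from 120, 121 and 128 FPKM to 63.1, 51.2 and 62.2 FPKM (limma adjusted p = 0.0296). Itga11, a collagen-binding integrin subunit, fell from 14.1, 17.6 and 18.2 FPKM to 5.3, 6.86 and 4.19 FPKM, or from 96, 119 and 165 fragments to 36, 56 and 30 (limma adjusted p = 0.0311). Prg4, which encodes lubricin of the joint surface, rose from 12.4, 9.69 and 14.1 FPKM to 50.5, 59.2 and 51.1 FPKM (log2 fold change 2.07 ± 0.20, limma adjusted p = 0.00943). In all 5 of these genes control 3 lay with controls 1 and 2, unlike in Tgfbr2, Tgfbr3, Ltbp3 and Ltbp4. A small spread among controls favours a call, and the other 4 genes were grouped by the place of control 3. The contrast was thus partly set by how the genes were picked and is a description only.

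The 4 falls did not hold in every subset: 0 remained called without control 1, control 2 or mutant 1, 1 without mutant 2 (Postn) and 2 without control 3 (Postn and Tgfbi). With Xist or the muscle list as a covariate, or without controls 1 and 2, neither the falls nor the rise of Prg4 were called, while the fold changes stayed of similar size. Under these 3 alternatives the log2 fold change of Postn was -2.09, -2.26 and -2.06, that of Tgfbi -1.96, -1.45 and -1.96, and that of Prg4 1.86, 1.58 and 1.85. Acta2 ranged from -1.12 to -1.01 and Itga11 from -1.74 to -1.60. Marker lists of other cells differed in how far they moved, and 1.24% of all genes tested were called. Of 11 fibrous and perichondral markers 1 rose (Prg4) and 1 fell (Postn), with a median log2 fold change of 0.2. Of 8 pericyte and smooth muscle markers 1 fell (Acta2), with a median of 0.2. No macrophage, osteoblast, osteoclast, adipocyte or erythroid marker was called. Of 15 cartilage markers 5 fell, with a summed level of 493 to 578 FPKM in controls against 231 to 286 FPKM in mutants and with Matn1 and Ucma at 0 in at least 1 library. Of 24 skeletal muscle markers 9 rose, with sums of 5150 to 12800 FPKM and 20600 to 37500 FPKM and none at 0. Their part in the response genes was not tested.

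Response genes that are direct Smad targets in many cell types, chosen after their values were seen, had the following levels. Pmepa1, a feedback inhibitor, measured 10.5, 9.39 and 10.3 FPKM in controls against 8.87, 12.9 and 9.62 FPKM in mutants (log2 fold change 0.04, 95% interval -0.47 to 0.54). Skil, which encodes the corepressor SnoN, measured 6.6 ± 1.05 and 7.76 ± 0.839 FPKM, and the connective tissue growth factor gene Ctgf 83.5 ± 5.05 and 110 ± 31.0 FPKM. Smad7, the inhibitory Smad, measured 2.33 ± 0.462 and 3.41 ± 0.772 FPKM. Its values were 2.46, 1.82 and 2.72 FPKM in controls against 4.28, 3.15 and 2.81 FPKM in mutants. All mutants thus lay above all controls, as for 9.77% of all genes. Before scaling for depth these were 11 to 22 fragments in controls against 18 to 26 in mutants. Adjusted p for these 4 genes ranged from 0.609 to 0.968 (limma).

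**Figure D5:**
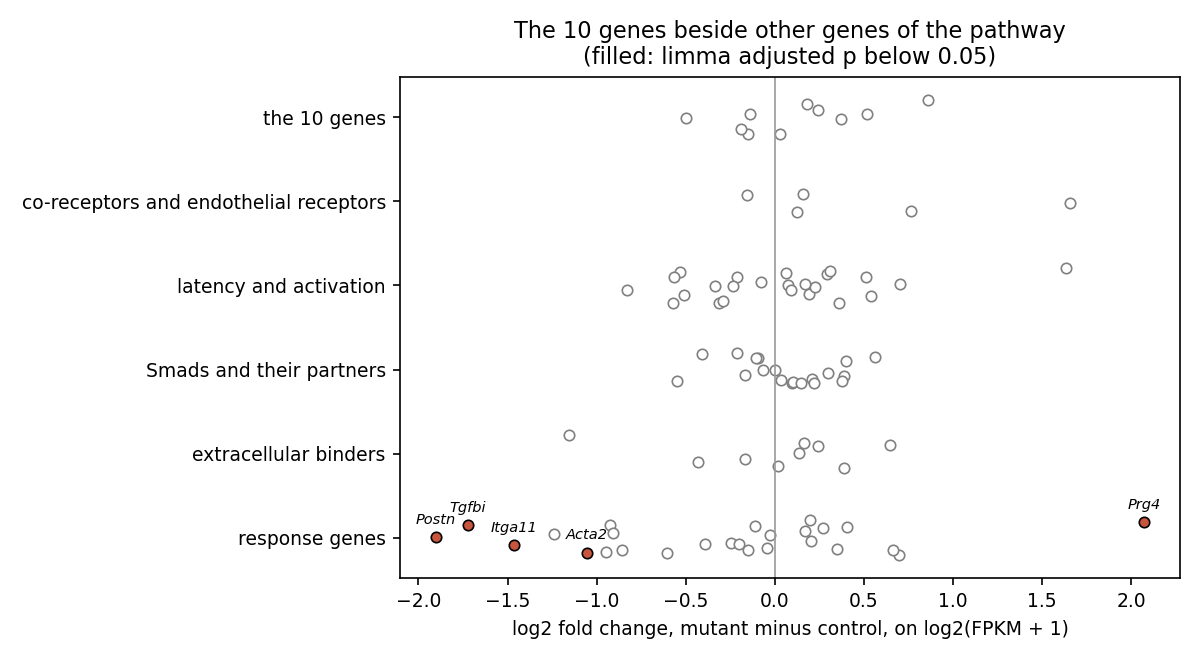
Log2 fold change of mutant minus control for the 10 genes and for 83 other pathway genes, each shown once in the first list that holds it; filled points passed the test. The 10 genes lay between -0.50 and 0.86, while the called response genes lay between -1.90 and -1.05 (Postn, Tgfbi, Itga11 and Acta2) and at 2.07 (Prg4).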

How the data were processed

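The deposited tables, 1 for each of 6 libraries, held FPKM made by the authors; the headers name no unit, taken here as FPKM because the values are fractional and Cufflinks is listed. Per the submitters' processing notes the tools were Cufflinks 2.2.1, TopHat2 2.0.13, SAMtools 0.1.19 and Bowtie2 2.2.3, and the build mm10. SMART-Seq HT cDNA and Nextera libraries, per the labels' protocols, do not keep strand. Genes with at least 1 FPKM in 3 or more libraries (18715) entered a limma 3.58.1 fit (R 4.3.3) of log2(FPKM + 1) (trend, robust moderation, group as the only term), with Benjamini-Hochberg adjustment over all of them. The fit and the recovery of fragments were tested on simulated data. Whole fragments were the smallest numbers up to 1000 that fitted all 6 libraries within 0.02 of a fragment; 7 of the 10 genes resolved, not Tgfbr2, Ltbp1 and Ltbp4. Depth assumes that these smallest numbers hold. Intervals of fragment ratios are exact (Clopper-Pearson) and cover counting error only. Named genes were the 10, every called pathway gene or otherwise the 3 smallest p of each list, Ihh, Gli1 and the 3 genes most like Ltbp4. Members and lists were chosen with earlier results of these data known. Some results on single genes are not reported here.

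Alternatives were 2 other scalings (quantile, median), other filters (5 FPKM or none), a smaller pseudocount (0.1), ordinary in place of robust moderation, a block for replicate number, a covariate (Xist, or mean muscle list level) and fewer libraries.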

Additional observations from a re-analysis of the deposited data

How the results depend on the processing

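Over 16 alternatives, the 10 genes gave 158 fold changes, of which 142 kept their direction and stayed uncalled, 15 changed sign in 7 genes and 1 was called (Ltbp4 without control 3). With the Xist covariate Tgfb3 became -0.27, Tgfbr2 -0.05, Tgfbr3 -0.05 and Ltbp3 -0.01, and without controls 1 and 2 they were -0.25, -0.05, -0.06 and -0.02. With the muscle covariate Tgfbr2 was -0.01, Tgfbr3 -0.12, Ltbp2 0.12, Mfap5 -1.14 (from 1.63), Tgif1 -0.06, Ppm1a 0.0 and Mapk12 -0.03, and after quantile normalization Tgfbr1 was -0.02. Ltbp4 was 0.16 with the Xist covariate and 0.14 with the muscle covariate, and Tgfb1 was -1.01 with the muscle covariate and with the smaller pseudocount. The muscle level did not overlap between the groups, and the SE of Ltbp4 was 0.57 with that covariate against 0.30 in the main fit. Leaving out 1 library at a time, Tgfb2 ran from -0.30 to 0.03, Tgfbr1 from -0.12 to 0.17 and Cd109 from -0.07 to 0.34. The number of the 10 genes called higher ran from 0 to 1 and the number called lower stayed at 0, pathway genes called higher ran from 1 to 2 and lower from 0 to 4, and all genes called from 13 to 414. The replicate block left 2 genes called of all tested and 0 pathway genes in either direction; same-numbered control and mutant libraries did not deviate together from their group means (r of 0.00628, -0.0162 and -0.00909 across genes, which are not independent replicates), so the numbers were not taken as a pairing. With the Xist covariate 2 genes were called, with the muscle covariate 3 and without controls 1 and 2 there were 5, with 0 pathway genes higher and 0 lower in each. Quantile normalization called 411 genes, no filter 133 and the filter at 5 FPKM 440; that filter left Tgfb1 and Ltbp2 untested. Quantile normalization moved the median of all genes to -0.03 and median scaling to -0.01 on the log2 scale. Depth of 1240000 to 1660000 fragments limits what can be seen of sparse genes, such as Tgfb1 with 1 to 15 fragments per library, and 3 libraries per group limit the rest.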

Other observations

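Thbs1, whose product thrombospondin can release latent ligand, had 18, 16 and 59 fragments in controls against 13, 72 and 29 in mutants, or 6.5 ± 3.92 and 8.33 ± 5.98 FPKM (SD, n = 3; limma adjusted p = 0.904). It was highest in mutant 2, as was Tgfb1, and lower in mutants 1 and 3. Both genes were chosen after their values were seen, and no test of their likeness was made.

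Some ligand-releasing integrin and carrier genes, chosen after their values were seen, were also low. Itgb6 and Itgb8, which encode integrin subunits that free TGF-beta from its propeptide, stood at 6.66 ± 1.19 and 1.39 ± 0.821 FPKM in controls against 9.15 ± 3.5 and 1.62 ± 0.225 FPKM in mutants, with 3 to 9 fragments of Itgb8 per library. Lrrc32 and Nrros, membrane carriers of latent TGF-beta on regulatory T cells and on myeloid cells, measured 5.54 ± 0.429 and 3.37 ± 0.949 FPKM in controls against 7.09 ± 1.39 and 5.14 ± 0.501 FPKM in mutants. All mutant values of Nrros lay above the controls, as for 9.77% of all genes (limma adjusted p = 0.502). The fibrillin gene Fbn2, a partner of Fbn1 in young microfibrils, measured 6.64 ± 1.75 FPKM in controls against 4.28 ± 1.32 FPKM in mutants, on 68 to 154 and 49 to 90 fragments (SD, n = 3; limma adjusted p = 0.507). Fbn1, given above, lay on the other side of its control mean, and whether the 2 fibrillin genes differed in their response was not tested.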
